A study of Mus musculus with 6 samples.

Results

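Galectins are lectins that bind beta-galactoside sugars, and Lgals3bp encodes a secreted glycoprotein that binds several of them. The genes described are Lgals3bp, Lgals1, Lgals3, Lgals8 and Lgals9, 5 of the 35275 genes in the deposited table, and all 5 passed the filter on low counts, as did 16938 genes in all. They were chosen by name, with the difference between the groups in view, so their differences between groups are given as a description and without a test. The cKO mice were C57BL/6 mice homozygous for a floxed Parp1 gene that carried Pdgfra-CreER, a tamoxifen-dependent recombinase expressed from the promoter of a receptor gene of oligodendrocyte precursors. The control mice were littermates homozygous for the same floxed gene without the recombinase. Both groups received tamoxifen by intraperitoneal injection on postnatal days 1 to 3, and forebrain RNA was taken on postnatal day 9 from 3 cKO and 3 control mice. Fibroblasts of the brain coverings express Pdgfra as well, and the RNA came from all cells of the forebrain, so the values do not separate recombined cells from the others.

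Galectins work in the cytosol and, after release by a route that bypasses the secretory pathway, on glycoproteins outside the cell. They differ in build: galectin-1 (Lgals1) has a single sugar-binding domain and forms dimers, galectin-3 (Lgals3) joins such a domain to a long flexible tail, and galectin-8 and galectin-9 (Lgals8, Lgals9) each carry a pair of linked domains. Lgals3bp is no galectin: it has a scavenger receptor cysteine-rich domain, is heavily glycosylated and binds galectins, integrins and matrix proteins. In the brain, galectin-3 is known from activated microglia, galectin-9 and Lgals3bp from cells exposed to interferon, and galectin-1 from astrocytes, vessels and coverings.

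Lgals3bp and Lgals9 were the members whose cKO and control libraries did not overlap, as was so for 11.9% of all tested genes. The stretches around their start sites are printed here because both genes are known to respond to interferon. The sequences are RefSeq's on GRCm38.p6, 250 bases before to 50 bases after the start site, on the gene's minus strand. Lgals3bp lies at chr11:118401910-118402209 and Lgals9 at chr11:78984875-78985174. Capitals mark every match, on either strand, to the core of the interferon-stimulated response element, GAAANNGAAA, or to the shorter interferon regulatory factor core, AANNGAAA.
Lgals3bp: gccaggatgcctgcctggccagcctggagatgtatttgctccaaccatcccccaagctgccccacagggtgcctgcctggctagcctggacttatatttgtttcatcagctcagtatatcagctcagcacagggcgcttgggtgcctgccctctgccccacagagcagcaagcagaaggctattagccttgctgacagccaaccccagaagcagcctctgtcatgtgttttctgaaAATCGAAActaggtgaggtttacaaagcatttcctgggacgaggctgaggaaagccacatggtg
Lgals9: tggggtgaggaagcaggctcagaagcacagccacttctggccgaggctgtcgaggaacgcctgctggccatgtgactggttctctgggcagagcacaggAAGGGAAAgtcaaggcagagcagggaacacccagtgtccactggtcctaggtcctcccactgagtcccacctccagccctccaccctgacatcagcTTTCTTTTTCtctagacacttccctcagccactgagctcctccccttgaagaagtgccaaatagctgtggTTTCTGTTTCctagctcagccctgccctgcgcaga

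Lgals9 held 2 matches to GAAANNGAAA, both on the opposite strand, at -55 to -46 and at 16 to 25 relative to the start site. Each of them contains an overlapping match to AANNGAAA, and a further match to the shorter core, AAGGGAAA, stood at -151 to -144. Lgals3bp held no match to GAAANNGAAA and 1 match to AANNGAAA, AATCGAAA at -14 to -7. The shorter core was searched after the Lgals3bp sequence had been read. Of all 32851 RefSeq mouse promoters of this length, 3.44% held GAAANNGAAA and 23.9% held AANNGAAA on either strand. A gamma-activated site, TTCNNNGAA, was present in 8.3% of promoters and in neither of these. Lgals3 and Lgals8 held none of the 3 motifs, and for Lgals1 no sequence was used. Among the 25 interferon-stimulated genes listed for this comparison, 17 had a promoter in the table, and 11 of those genes held GAAANNGAAA. The shorter core, which GAAANNGAAA contains, was held by 13 of the 17. A gene was counted if any of its promoters matched, while the shares above are per promoter. A match describes letters in this window and says nothing of whether a factor bound there.

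Library totals ran from 17262042 to 29310193 counts, and the members had 150 to 881 counts per library, which gives a counting error of 3.37% to 8.16% of a value. Control replicate 3 stood apart on the first principal component (45.5, against -16.9 to -3.99 in the other 5 libraries; 36.5% of the variance). Control replicate 1 was the only library with counts of the Y-linked gene Ddx3y above 1 (1123 counts), so by these counts the sexes were unevenly spread. Parp1, the deleted gene, was at 80.8, 79.7 and 79.1 CPM in cKO replicates 1, 2 and 3, against 90.8, 97.3 and 85.6 CPM in control replicates 1, 2 and 3. CPM here are counts scaled to library totals corrected by the trimmed mean of M-values (TMM). Every gene's deposited count covers all its exons and all cells, so that fewer cells of a type and less RNA per cell cannot be told apart.

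Lgals3bp (ENSMUSG00000033880, chromosome 11, 118392751 to 118402092 in mm10, minus strand) was the member that differed most. Its level was 39.8, 32.6 and 30.6 CPM in cKO replicates 1, 2 and 3, against 13.9, 15.1 and 15.6 CPM in control replicates 1, 2 and 3. The lowest cKO library lay well above the highest control library, and the controls lay close together. The mean of the 3 cKO mice was 34.3 ± 4.8 CPM and that of the 3 control mice 14.9 ± 0.885 CPM (± SD), a difference of 19.5 CPM. The fitted log2 fold change was 1.20 (95% confidence interval 0.97 to 1.44), or 2.3-fold (1.95 to 2.72). Leaving out any single library gave log2 fold changes from 1.09 to 1.28. Without control replicate 3, the library that stood apart, it was 1.23, and without control replicate 1, the library with Y-linked counts, it was 1.16.

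Lgals9 (ENSMUSG00000001123, chromosome 11, 78962974 to 78984946, minus strand), which encodes a ligand of the immune receptor Tim-3, had the next largest difference. It was at 14.6, 12.6 and 13.3 CPM in cKO replicates 1, 2 and 3, against 9.99, 9.94 and 6.98 CPM in control replicates 1, 2 and 3. All 3 cKO libraries lay above all 3 controls, and control replicate 3 was the lowest of the 6. The cKO mean was 13.5 ± 0.97 CPM and the control mean 8.97 ± 1.72 CPM (± SD, n = 3 per group), and the fit put the log2 fold change at 0.59 (0.27 to 0.91, 95% confidence interval). Without control replicate 3 it was 0.43.

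Lgals1 (ENSMUSG00000068220, chromosome 15, 78926725 to 78930465, plus strand) was at 17.9, 12.6 and 11.6 CPM in cKO replicates 1, 2 and 3, against 12.1, 10.9 and 8.53 CPM in control replicates 1, 2 and 3. The groups overlapped, since cKO replicate 3 lay below control replicate 1, and cKO replicate 1 was the highest library. The log2 fold change was 0.41 (95% confidence interval 0.02 to 0.81), 0.21 without cKO replicate 1 and 0.27 without control replicate 3. The annotation holds processed pseudogenes of Lgals1 that may share its reads, so its counts are less certain.

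Lgals3 (ENSMUSG00000050335, chromosome 14, 47367751 to 47386160, plus strand) was at 9.67, 11.5 and 12.3 CPM in cKO replicates 1, 2 and 3, against 10.7, 13.5 and 6.84 CPM in control replicates 1, 2 and 3. The cKO values fell within the range of the controls, whose spread (SD 3.35 CPM) was larger than the difference between the means of 0.801 CPM. The log2 fold change was 0.11 (95% confidence interval -0.38 to 0.61), and it was -0.12 without control replicate 3. Galectin-3 is the partner after which Lgals3bp was named.

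Lgals8 (ENSMUSG00000057554, chromosome 13, 12439415 to 12464944, minus strand), whose protein marks damaged vesicles in the cytosol, was at 26.1, 26.6 and 25.4 CPM in cKO replicates 1, 2 and 3, against 27.7, 24.6 and 33.6 CPM in control replicates 1, 2 and 3. The cKO values lay within the range of the controls, and control replicate 3 was the highest library. The log2 fold change was -0.14 (95% confidence interval -0.37 to 0.10), and -0.01 without control replicate 3. Its exons overlap those of Heatr1 on the opposite strand by 155 bp, so its counts are less certain, as the strand setting of the counting is not given in the sources used here.

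**Figure D1:**
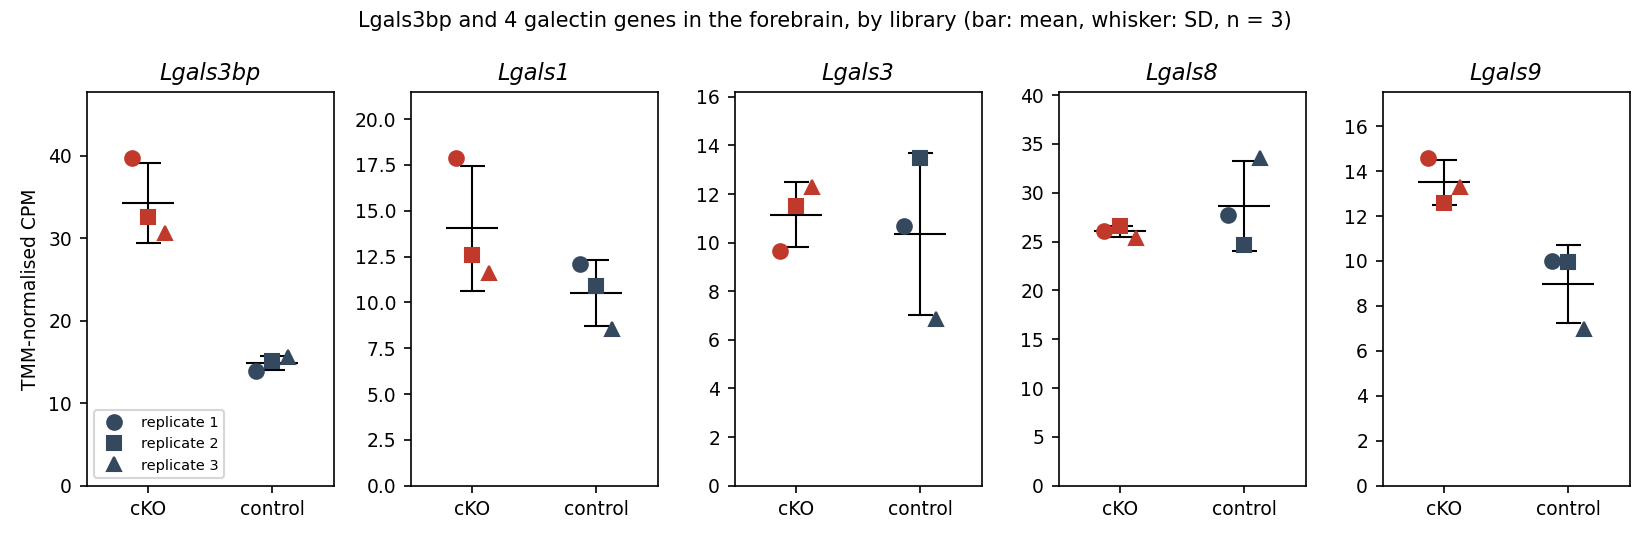
TMM-normalised CPM (y axis, from 0, a scale of its own per gene) of the 5 genes in the 3 cKO libraries (red, left) and the 3 control libraries (dark, right), with the marker giving the replicate, the bar the mean and the whisker the SD. For Lgals3bp the cKO libraries sit at 30.6 to 39.8 CPM and the controls at 13.9 to 15.6 CPM, and for Lgals9 at 12.6 to 14.6 and 6.98 to 9.99 CPM, while the groups overlap for the other 3 genes.

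In the fit across all genes, 1 of the 5 members was called (Lgals3bp), beside 0.266% of the 16938 tested genes. Groups that did not overlap were found for 2 of the 5, Lgals3bp and Lgals9, beside 11.9% of tested genes. Since the members were proposed from this contrast, nothing is read from either count. A gene is called here at an adjusted p under 0.05 in edgeR's quasi-likelihood test, with p-values adjusted over all tested genes (Benjamini-Hochberg).

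The order of the genes by level was read per length, in the deposited FPKM (fragments scaled to gene length and library total). In cKO the order was Lgals1 (17.5 ± 4.52 FPKM), Lgals3bp (14.7 ± 2.34), Lgals8 (9.14 ± 0.321), Lgals9 (8.5 ± 0.74) and Lgals3 (7.83 ± 0.805). Of the neighbours in that order, Lgals3bp and Lgals8 had ranges that did not overlap, and the other 3 pairs overlapped. In controls it was Lgals1 (13.2 ± 2.35 FPKM), Lgals8 (10.1 ± 1.52), Lgals3 (7.31 ± 2.43), Lgals3bp (6.38 ± 0.358) and Lgals9 (5.67 ± 1.13; SD, n = 3 mice each), and all 4 neighbouring pairs overlapped. Lgals3bp thus ranked above Lgals8 in cKO and below Lgals8 and Lgals3 in controls. The mean FPKM of the 5 genes in controls lay between the 65.4th and 79.0th percentile of genes with any count.

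The summed FPKM of the 5 genes was 65.7, 54.9 and 52.6 in cKO replicates 1, 2 and 3, against 44.7, 45.0 and 38.0 in control replicates 1, 2 and 3. Lgals3bp made up 26.4%, 25.3% and 24.5% of that sum in cKO replicates 1, 2 and 3, against 13.3%, 14.6% and 17.4% in control replicates 1, 2 and 3. Lgals8 made up 14.2%, 16.9% and 16.7% in cKO, against 21.8%, 19.4% and 30.8% in controls. Lgals1 held the largest share in every cKO library and in control replicates 1 and 2, and Lgals8 in control replicate 3.

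**Figure D2:**
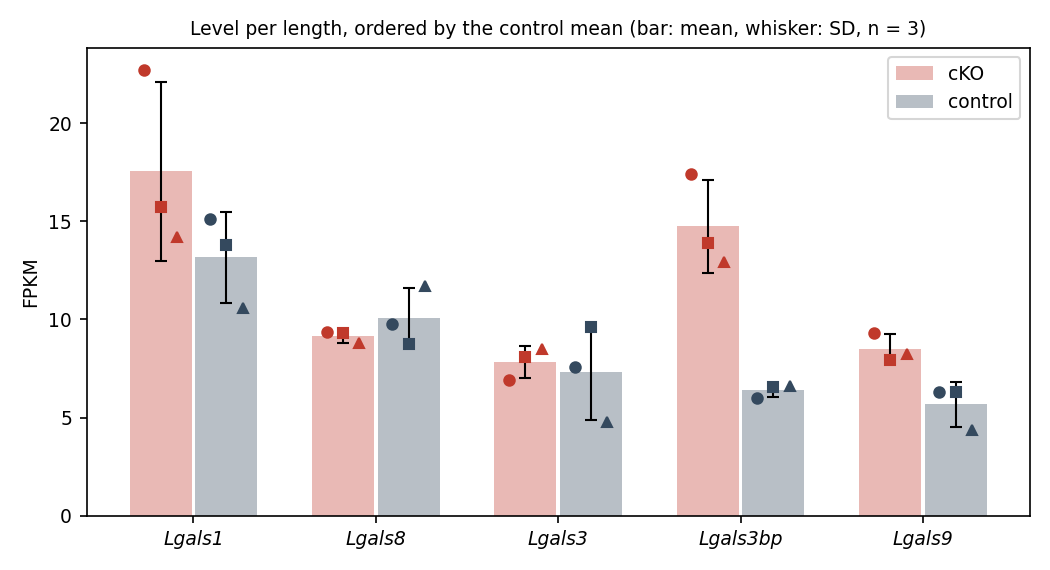
Deposited FPKM (y axis, from 0) of the 5 genes in order of their control mean, with bars for the mean, whiskers for the SD and points for each of 3 cKO (red, left bar) and 3 control libraries (dark, right bar). Lgals3bp averages 14.7 FPKM in cKO, above Lgals8 at 9.14 FPKM, and 6.38 FPKM in controls, below Lgals8 at 10.1 FPKM.

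The other galectin genes gave no call. Of 7 further family genes listed, 6 were in the table and 4 passed the count filter. None (0 of 4) was called in either direction by edgeR, beside 0.266% of all tested genes. Also 0 of the 4 had an unadjusted p under 0.05 (beside 6.27% of all tested genes in either direction), and 0 were called by DESeq2 or limma. Lgalsl, which encodes the galectin-related protein, had the highest FPKM of all galectin and galectin-like genes tested, 28.8 in cKO and 29.2 in controls. Its cKO mean was 97.3 ± 3.79 CPM and its control mean 98.2 ± 5.08 CPM (± SD, n = 3 per group). The log2 fold change of -0.01 had an interval of -0.15 to 0.13. Lgals4, an intestinal galectin, had a mean of 4.42 ± 0.502 CPM in the cKO group and 3.86 ± 0.5 CPM in the control group. Lgals7, a galectin of skin, had 1.02 ± 0.243 CPM in the cKO group and 1.16 ± 0.11 CPM in the control group. Lgals12, an adipose tissue galectin, had 0.35 ± 0.217 CPM in the cKO group and 0.577 ± 0.164 CPM in the control group, with a wide interval of its log2 fold change (-1.9 to 0.29).

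**Figure D3:**
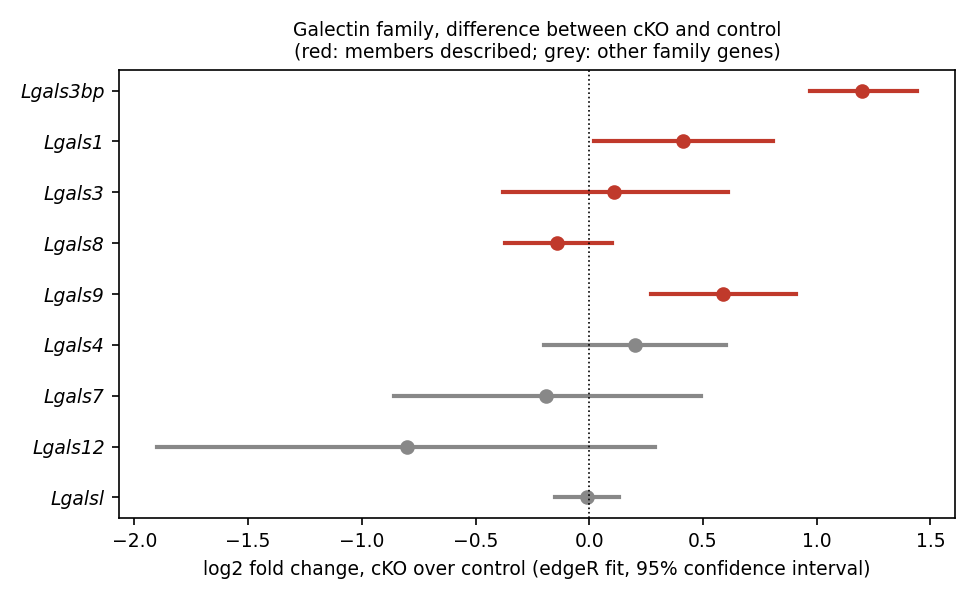
Fitted log2 fold change of cKO over control (x axis) with its 95% confidence interval for the 5 members (red) and the 4 other galectin genes tested (grey). Lgals3bp is at 1.20, Lgals9 at 0.59, and Lgalsl has the narrowest interval of those drawn, from -0.15 to 0.13.

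Receptors and partners of galectins gave no call. Of 16 listed genes 14 were tested, and 0 were called by edgeR, beside 0.266% of all tested genes in either direction. With so small a share, 0 calls in a short list say little. Also 0 of the 14 had an unadjusted p under 0.05 (beside 6.27% of all tested genes), and 0 were called by DESeq2 or limma. Their median log2 fold change was 0.01, beside -0.00068 over all tested genes. The members with the smallest p were Trem2, a microglial lipid receptor (log2 fold change 0.24), Tsg101, a part of the vesicle-sorting machinery (-0.08), and Ptprc, the leukocyte antigen CD45 (0.18), with edgeR adjusted p of 0.875, 0.885 and 0.902. Itgb1, the integrin beta chain that galectins and Lgals3bp both bind, was at 0.01, and its interval of -0.14 to 0.16 was narrow. Enzymes that build and branch the N-glycans bound by galectins were as close to 0. Of 17 tested genes 0 were called by edgeR (beside 0.266% of all tested genes in either direction) and 0 had an unadjusted p under 0.05 (beside 6.27%). DESeq2 and limma called 0, and the median log2 fold change was 0.03. St6gal2, a sialyltransferase, Man2a1, a Golgi mannosidase, and Mgat3, which adds the bisecting residue, had the smallest p (log2 fold changes 0.10, 0.15 and -0.11; edgeR adjusted p from 0.845 to 0.853).

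Of the matrix and other partners of Lgals3bp, all 13 listed genes were tested and 0 were called by edgeR (beside 0.266% of all tested genes in either direction). A positive log2 fold change was found for 12, with a median of 0.26, and of 0.17 without control replicate 1. The list's mean log2 difference from the 6-library mean was 0.15, 0.19 and -0.01 in cKO replicates 1, 2 and 3, against -0.10, -0.04 and -0.18 in control replicates 1, 2 and 3. An unadjusted p under 0.05 was found for 4, all higher in cKO (beside 3.52% of all tested genes), DESeq2 called 1 higher (beside 0.301%) and limma 0. Col4a1, a basement membrane collagen chain, was at 233, 239 and 193 CPM in cKO replicates 1, 2 and 3, against 153, 176 and 167 CPM in control replicates 1, 2 and 3 (log2 fold change 0.42, edgeR adjusted p = 0.102). Col6a2, a collagen VI chain, had a cKO mean of 35.4 ± 0.776 CPM and a control mean of 28.1 ± 1.51 CPM (log2 fold change 0.34, edgeR adjusted p = 0.182). Col5a2, a collagen V chain, had a cKO mean of 35.1 ± 4.02 CPM and a control mean of 26.4 ± 2.51 CPM (log2 fold change 0.41, edgeR adjusted p = 0.253; ± SD, n = 3 per group). Fn1, fibronectin, was at a log2 fold change of 0.00. For 5 of the 13 the cKO libraries all lay above the controls, beside 6.07% of all tested genes. Without cKO replicate 3, 2 of the 13 were called higher (of 19 over all genes), and with no filter on low counts 3 were (of 50).

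Markers of the cells that make such matrix were given beside these genes. Of 12 fibroblast genes all 12 had a positive log2 fold change (median 0.39, and 0.25 without cKO replicate 2). By edgeR 0 were called (beside 0.266% of all tested genes in either direction), with 4 at an unadjusted p under 0.05 (beside 3.52%). DESeq2 called 1 (beside 0.301%) and limma 0. Without cKO replicate 3, edgeR called 2 higher (of 19 over all genes). The summed level of the 12 fibroblast genes was 440, 462 and 261 CPM in cKO replicates 1, 2 and 3, against 276, 265 and 344 CPM in control replicates 1, 2 and 3. The groups thus overlapped, and cKO replicate 3 was the lowest library. Bgn, the proteoglycan biglycan, had the smallest p (log2 fold change 0.55, edgeR adjusted p = 0.301). Of 11 endothelial and 8 mural genes 0 were called by edgeR (beside 0.266% of all tested genes in either direction), DESeq2 or limma, with 1 and 2 at an unadjusted p under 0.05 (beside 3.52% of all tested genes) and medians of 0.09 and 0.21. The endothelial median was -0.02 without cKO replicate 2 and 0.19 without cKO replicate 3. The mural median was 0.07 without cKO replicate 1, 0.08 without control replicate 3, 0.32 without cKO replicate 3 and 0.33 without control replicate 1. No gene of these lists was at 0 in every library. Their part in the differences of Lgals1 and of the collagens was not tested.

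Genes of other proteins with scavenger receptor cysteine-rich domains, the domain Lgals3bp carries, gave no call either. Of 16 listed genes 11 were tested, and 0 were called by edgeR (beside 0.266% of all tested genes in either direction), with 1 at an unadjusted p under 0.05 (beside 3.52% of all tested genes) and 0 called by DESeq2 or limma. Their median log2 fold change was 0.21, with 9 positive. It was 0.13 without control replicate 2, and 0.04 and 0.09 by limma on FPKM with a pseudocount of 1 and of 0.1. The gene with the smallest p was Prss12, the neuronal protease neurotrypsin, with a cKO mean of 20.8 ± 1.15 CPM and a control mean of 17.8 ± 1.06 CPM (± SD, n = 3 per group; log2 fold change 0.22, edgeR adjusted p = 0.768). Loxl2, a collagen cross-linking enzyme, was at 0.69 (95% confidence interval -0.05 to 1.42) and Msr1, a macrophage scavenger receptor, at 0.47 (-0.22 to 1.17).

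**Figure D4:**
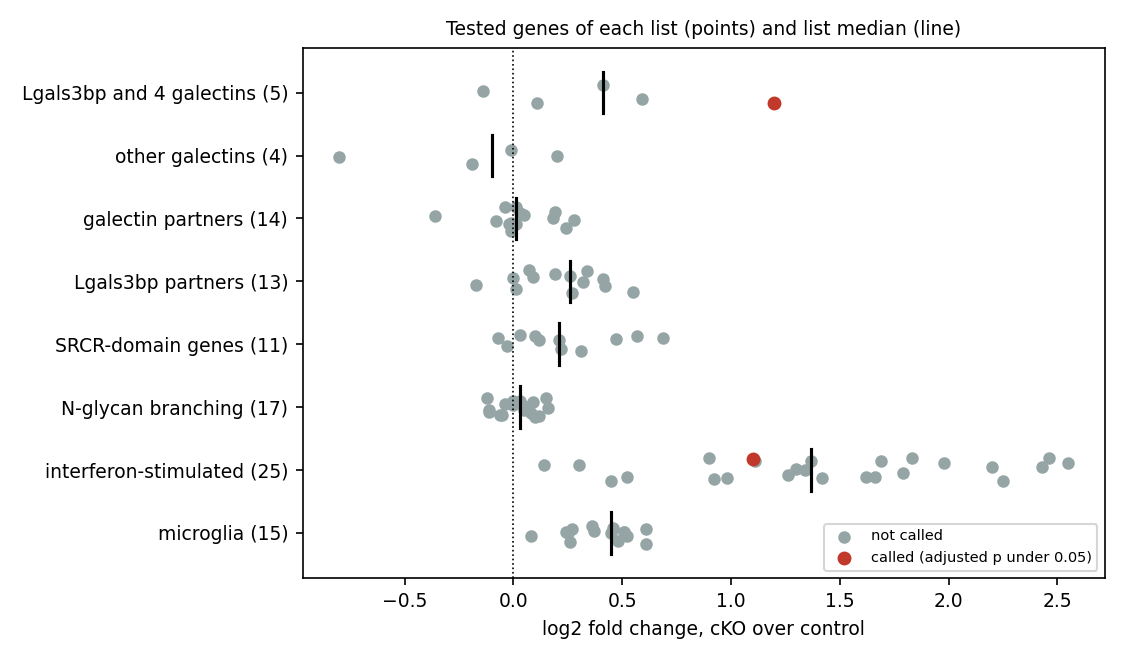
Log2 fold changes of cKO over control (x axis) for the tested genes of 8 lists (rows, number of genes in brackets), with red for genes called at an edgeR adjusted p under 0.05, grey for the rest and a line at each list's median. The medians are 1.37 for interferon-stimulated genes, 0.45 for microglia and 0.26 for Lgals3bp partners, and between -0.10 and 0.03 for other galectins, galectin partners and N-glycan branching.

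The genes whose pattern over the 6 libraries lay closest to that of Lgals3bp were read by the root mean square difference of log2 CPM, each gene centred on its own mean, among 15240 other genes with a mean of at least 1 CPM. In order, they were Ifi27, an interferon-induced mitochondrial protein (0.13), Eda2r, a receptor of the tumor necrosis factor family (0.14), Ifih1, the cytosolic RNA sensor MDA5 (0.18), Sp100, a nuclear body protein (0.19), and Esr1, the estrogen receptor alpha (0.19). Ifi27 was at 15.7, 12.6 and 12.3 CPM in cKO replicates 1, 2 and 3, against 6.12, 5.38 and 7.39 CPM in control replicates 1, 2 and 3. Like Lgals3bp, it was highest in cKO replicate 1, and its groups did not overlap. Ifih1 was at 7.5, 5.81 and 5.5 CPM in cKO replicates 1, 2 and 3, against 3.06, 3.22 and 3.88 CPM in control replicates 1, 2 and 3, with the same order among the cKO libraries. Such shared features follow from picking genes by pattern, here and for the other members below, so nothing is read from them. Ifi27 and Sp100 have close relatives in the mouse genome to which reads could be split, which makes their values uncertain.

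Of the 25 interferon-stimulated genes tested 1, Ifi27, was called higher by edgeR (beside 0.059% of all tested genes), 22 had an unadjusted p under 0.05 (beside 3.52% of all tested genes), 12 were called by DESeq2 (beside 0.301%) and 1 by limma. Without control replicate 1 the edgeR count was 0 (of 4 called higher over all genes). Without cKO replicate 3 it was 4 (of 19), and with no filter on low counts it was 8 (of 50). All 25 had a positive log2 fold change (median 1.37, and 0.71 by limma on FPKM with a pseudocount of 1), and for 19 of them the groups did not overlap, beside 6.07% of all tested genes. The list's mean log2 difference from the 6-library mean was 1.34, 0.48 and 0.20 in cKO replicates 1, 2 and 3, against -0.74, -0.67 and -0.61 in control replicates 1, 2 and 3. That of Lgals3bp was 0.82, 0.53 and 0.44 in cKO replicates 1, 2 and 3, against -0.70, -0.57 and -0.53 in control replicates 1, 2 and 3. Both followed the same order over the 6 libraries, and Lgals3bp was less uneven among the cKO mice than the list. The steps among the controls were small, with a counting error of 5.42% to 6.45% for Lgals3bp there. The part of interferon in the difference of Lgals3bp was not tested. The summed level of the list was 125 to 214 CPM in cKO and 85.5 to 97.4 CPM in controls, and none of its genes was at 0 in every library.

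For Lgals9 the closest patterns were those of Fcrls, a microglial receptor (0.06), Aif1, the microglial protein Iba1 (0.073), and H2-M3, a non-classical histocompatibility gene (0.082). Fcrls was at 33.2, 27.6 and 26.9 CPM in cKO replicates 1, 2 and 3, against 20.6, 22.0 and 14.9 CPM in control replicates 1, 2 and 3. Its lowest library was the one lowest in Lgals9, as follows from its choice by pattern. Aif1 was at 8.68, 6.95 and 7.76 CPM in cKO, against 6.53, 5.84 and 4.15 CPM in controls, given by replicate number. All 15 microglia genes tested had a positive log2 fold change (median 0.45, and 0.29 without control replicate 3). By edgeR 0 were called (beside 0.266% of all tested genes in either direction), 8 had an unadjusted p under 0.05 (beside 3.52% of all tested genes), and DESeq2 called 3 (beside 0.301%) and limma 0. The edgeR count was 1 without control replicate 1 (of 4 called higher over all genes) and 1 with no filter on low counts (of 50). Fcrls had the smallest p (log2 fold change 0.61, edgeR adjusted p = 0.244).

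The mean log2 difference of the microglia list from the 6-library mean was 0.25, 0.08 and 0.29 in cKO replicates 1, 2 and 3, against 0.02, -0.14 and -0.51 in control replicates 1, 2 and 3. That of Lgals9 was 0.41, 0.21 and 0.29 in cKO replicates 1, 2 and 3, against -0.13, -0.14 and -0.64 in control replicates 1, 2 and 3. Lgals9 and the list, which holds Fcrls and Aif1, were both lowest in control replicate 3, the library that stood apart. The lists of activated microglia (-0.48), reactive astrocyte (-0.3), mural (-0.28) and blood genes (-1.32), among others, were also lowest there. Those of interferon-stimulated and fibroblast genes, among others, were not. The summed level of the 15 genes was 559 to 673 CPM in cKO and 368 to 546 CPM in controls, and none was at 0 in every library. The part of microglial and of interferon-stimulated RNA in the difference of Lgals9 was not tested.

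**Figure D5:**
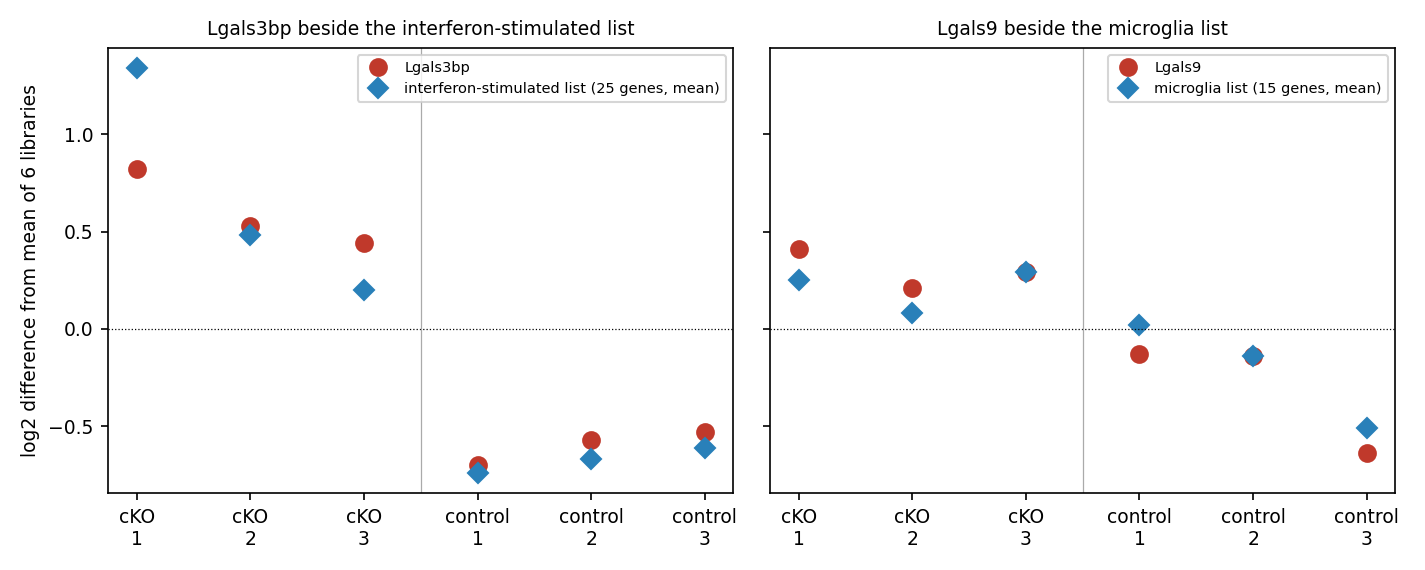
Log2 difference from the mean of the 6 libraries (y axis) in each library (x axis, cKO left, control right) for Lgals3bp beside the mean of 25 interferon-stimulated genes (left panel) and for Lgals9 beside the mean of 15 microglia genes (right panel). Lgals3bp and the interferon list are highest in cKO replicate 1 (0.82 and 1.34), and Lgals9 and the microglia list are lowest in control replicate 3 (-0.64 and -0.51). Some lists not drawn, such as mural and blood genes, were also lowest in control replicate 3.

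Genes of activated microglia and macrophages, where galectin-3 is known to rise, were read beside Lgals3. Of 14 tested genes 1 was called higher by edgeR (beside 0.059% of all tested genes), the receptor gene Clec7a, with a cKO mean of 2.88 ± 0.909 CPM and a control mean of 0.705 ± 0.301 CPM (± SD, n = 3 per group; log2 fold change 2.03, adjusted p = 0.039). DESeq2 called 2 (beside 0.301%) and limma 0, and 2 had an unadjusted p under 0.05 (beside 3.52%). The edgeR count was 0 without control replicate 1 (of 4 called higher over all genes), without cKO replicate 2 (of 5), and with a filter at a mean of 1 CPM (of 8). The list's median log2 fold change was 0.27, with 11 positive, and 0.14 without control replicate 3. The closest patterns to Lgals3 were Nupr1, a stress-induced gene (0.058), BC034090 (0.089) and C1ra, a complement protease (0.093), all lowest in control replicate 3.

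The closest patterns to Lgals1 were those of Gm15774 (0.055), Csf3r, the receptor for granulocyte colony-stimulating factor (0.058), and Adam33, a metalloprotease (0.065), all highest in cKO replicate 1. For Lgals8 they were the unnamed identifier ENSMUSG00000037814 (0.022), Enho, which encodes the peptide adropin (0.024), and Kbtbd3 (0.025). All 3 were highest in control replicate 3, as Lgals8 was. The 9 genes closest to Lgals1, Lgals3 and Lgals8 had edgeR adjusted p from 0.835 to 0.948.

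Astrocyte, neuron and choroid plexus with ependymal markers gave 0 calls of 10, 9 and 7 tested genes by edgeR (beside 0.266% of all tested genes in either direction), DESeq2 or limma. In each, 0 had an unadjusted p under 0.05 (beside 6.27%). Their medians were 0.03, 0.02 and -0.03, whose signs turned when single libraries were left out. Of 10 reactive astrocyte genes 0 were called by any of the 3 tools, with 2 at an unadjusted p under 0.05 (beside 3.52% of all tested genes) and a median of 0.23, or 0.15 by limma on FPKM with a pseudocount of 1. Of 7 blood genes 0 were called by any tool and 0 had an unadjusted p under 0.05 (beside the same shares as above), with summed levels of 10.6 to 117 CPM in cKO and 8.76 to 189 CPM in controls. In the oligodendrocyte lineage, at which the deletion was aimed, 11 of 14 genes were called lower by edgeR (beside 0.207% of all tested genes), with a median of -1.34. DESeq2 called 13 lower (of 62 over all genes), limma-voom 10 (of 33) and limma on FPKM 8 with either pseudocount (of 20). The summed level of the 14 genes was 483 to 561 CPM in cKO and 1010 to 1160 CPM in controls.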

How the data were processed

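Poly-A RNA of 6 mouse forebrains was sequenced, per the labels' protocols, from directional libraries. Whole-number read counts per gene were deposited. The submitters' processing notes list STAR 2.5, HTSeq 0.6.1, CASAVA, DESeq and the build mm10 and say nothing of what each did. The strand setting is not stated, and genes other than the 5 members were not checked for exons that overlap on the opposite strand. The deposited FPKM equalled the deposited count divided by the table's total and by 1 fixed length per gene, within 0.01% for 100% of genes with counts in every library, so they are the same measurement on another scale. Names and positions come from GENCODE M21 (mm10), which named 34490 of 35275 identifiers.

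Counts were tested with edgeR 4.0.16 in R 4.3.3. The filter was filterByExpr (minimum count 10, minimum total 15), with TMM scaling and a two-sided quasi-likelihood test with robust dispersion. Benjamini-Hochberg adjustment ran over 16938 genes. DESeq2 1.42.0 and limma 3.58.1 (voom, or log2 of FPKM plus a pseudocount of 1 or 0.1 where FPKM averaged 0.5 or more) were alternatives. The fit was tested on simulated data with known changes, set only in genes with a mean of at least 1 CPM. It recovered 80 of 91 changes of log2 size 1 and 108 of 109 of log2 size 2, with 14 false calls.

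The members and the 17 gene lists were chosen with earlier results of these data known. Genes are named by rule: the 5 members, Parp1, the 5 genes with the pattern closest to Lgals3bp and the 3 closest to each other member (log2 CPM with a prior count of 1), and of each pathway list every called gene and the 3 with the smallest p. Of the other lists the rule names every called gene, at most 4, and the gene with the smallest p where its values stand beside a member. Lgalsl, Itgb1, Fn1 and Ddx3y were named outside this rule, after their values were seen. No set test was run.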

Additional observations from a re-analysis of the deposited data

How the results depend on the processing

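The members' values are given as a description, since this contrast chose them. The log2 fold change of Lgals3bp was 1.08 to 1.21 under the 10 alternatives that kept all libraries and 1.09 to 1.28 under the 6 that left out a library. Lgals9 ran from 0.52 to 0.61 and from 0.43 to 0.68. The number of members called was 2 without the filter on low counts, where Lgals9 was called as well, and 1 under each other alternative. Without that filter 50 genes over all were called higher, against 10 in the main fit. Lgals1 was positive and Lgals8 negative throughout, while Lgals3 ran from -0.12 to 0.36 when a library was left out.

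Counts over all genes moved more. Against 10 higher and 35 lower, there were 50 and 61 with no filter on low counts, 51 and 62 by DESeq2, 4 and 20 by limma on log2(FPKM + 1), and 4 and 20 on log2(FPKM + 0.1). The cause was not tested. Closer to the main fit were limma-voom (7 and 33), DESeq2 size factors in edgeR (10 and 37) and upper-quartile factors (10 and 34). Scaling by library size only gave 9 and 34, and a filter at a mean of 1 CPM gave 8 and 32. Leaving out a library gave 4 to 19 higher and 24 to 44 lower. With the replicate number as a replicate block, 5 were higher and 27 lower, and Lgals3bp stayed at 1.20. Same-numbered libraries did not deviate together (Pearson r of deviations 0.00739, -0.0425 and 0.0102 for numbers 1, 2 and 3, across genes). No cKO library correlated best with its own number, but r over all pairings ran only from -0.0771 to 0.0906. With 3 libraries per group, this cannot show whether the numbers mark a pairing.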

Other observations

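Genes next to the members on their chromosomes were read after the other values had been seen, as the 2 nearest tested genes on each side. Around Lgals3bp they were Timp2, Cep295nl, Cant1 and C1qtnf1, with log2 fold changes of -0.15, 0.00, -0.02 and 0.25 (edgeR adjusted p from 0.838 to 0.999). Cant1, a nucleotidase gene, lay 4197 bp from Lgals3bp. Around Lgals9 they were Lyrm9, Nos2, Ksr1 and Gm11201, with log2 fold changes of -0.06, 0.07, 0.04 and 0.51 (adjusted p from 0.862 to 0.984). Nos2, the inducible nitric oxide synthase gene, lay 2720 bp away.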
